A study of Mus musculus with 12 samples.

Results

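Matrix metalloproteinases (MMPs) and their tissue inhibitors (TIMPs) were followed in RNA-seq libraries of mouse bone marrow mesenchymal stem cells (MSCs). The 10 genes described are Mmp2, Mmp3, Mmp9, Mmp12, Mmp13, Mmp14, Mmp19, Timp1, Timp2 and Timp3, out of 54532 genes in the deposited table, and each was found by its Ensembl identifier. They were listed by name, and Mmp12 was chosen by its measured levels, since its difference between genotypes had opposite signs in the 2 media, so the levels of Mmp12 are described here without a test. Of the 10 genes, 9 had at least 1 FPKM in at least 3 libraries and entered the tests. Mmp3 did not. FPKM divides the fragments of a gene by its length and by the depth of its library.

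The cells came from C57BL/6 mice that were 4 weeks old. Controls were Chd7fl/fl mice, which carry floxed Chd7 alleles but no Cre. The other genotype was Prx1-cre;Chd7fl/fl, in which Cre is driven from a promoter of early limb mesenchyme and removes exon 2 of Chd7, the gene of a chromatin remodeler. MSCs of both genotypes were flushed from long bones, used at passage 3 and harvested 5 days after induction. Osteogenic medium held β-glycerophosphate at 10 mM, dexamethasone at 10 nM and ascorbic acid at 50 µM. Adipogenic medium held isobutylmethylxanthine at 0.5 µM, dexamethasone at 1 µM and insulin at 10 µg/ml. There were 4 groups of 3 libraries. No source says that the libraries of a group came from separate animals or cultures, so the p-values measure only the spread between these libraries, which may be technical.

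MMPs are zinc-dependent endopeptidases that cut collagens, elastin and other proteins of the extracellular matrix. Most are secreted as inactive precursors and are activated by removal of the propeptide, while TIMPs bind the active site and block it. In bone and marrow these enzymes take part in matrix turnover by stromal cells, osteoblasts, osteoclasts and macrophages.

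Each library held 17490805 to 21093466 fragments on genes. The labels were checked on Chd7 and on cell type markers before the genes were compared. Chd7 ranged from 2.64 to 2.77 FPKM in control and from 2.03 to 2.35 FPKM in labelled knockout libraries with osteogenic medium (log2 difference -0.20, SE 0.0787, adjusted p = 0.16), and from 1.81 to 2.26 and from 2.03 to 2.48 FPKM in adipogenic medium (log2 difference 0.09, SE 0.0787, adjusted p = 0.428). Chd7 did not pass in either medium and its mean was not the lower one with adipogenic induction, so libraries of this genotype are called labelled knockout throughout. FPKM covers all exons, and a transcript without exon 2 would still be counted, so these levels check the label only in part. Of the stromal markers, Itgb1 (CD29) was between 317 and 412 FPKM and Pdgfrb between 39.9 and 87.1 FPKM, whereas Thy1 (CD90) was between 0.206 and 1.03 FPKM. Macrophage genes were abundant, with Cd68 between 491 and 909 FPKM and the pan-leukocyte gene Ptprc (CD45) between 7.63 and 23.0 FPKM in all 12 libraries.

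Control library 2 in adipogenic medium stood apart. Its mean correlation across genes was 0.941 with the other control libraries of its medium, and 0.981 and 0.983 with the control and labelled knockout libraries in osteogenic medium. Labelled knockout library 1 in adipogenic medium also differed from its group, with a chi-square per gene of 20.3 and 23.1 against the other libraries, which differed from each other by 3.26. Counts of genes called between genotypes in adipogenic medium, and values that moved most with these libraries, are also given without 1 or both of them.

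**Figure D1:**
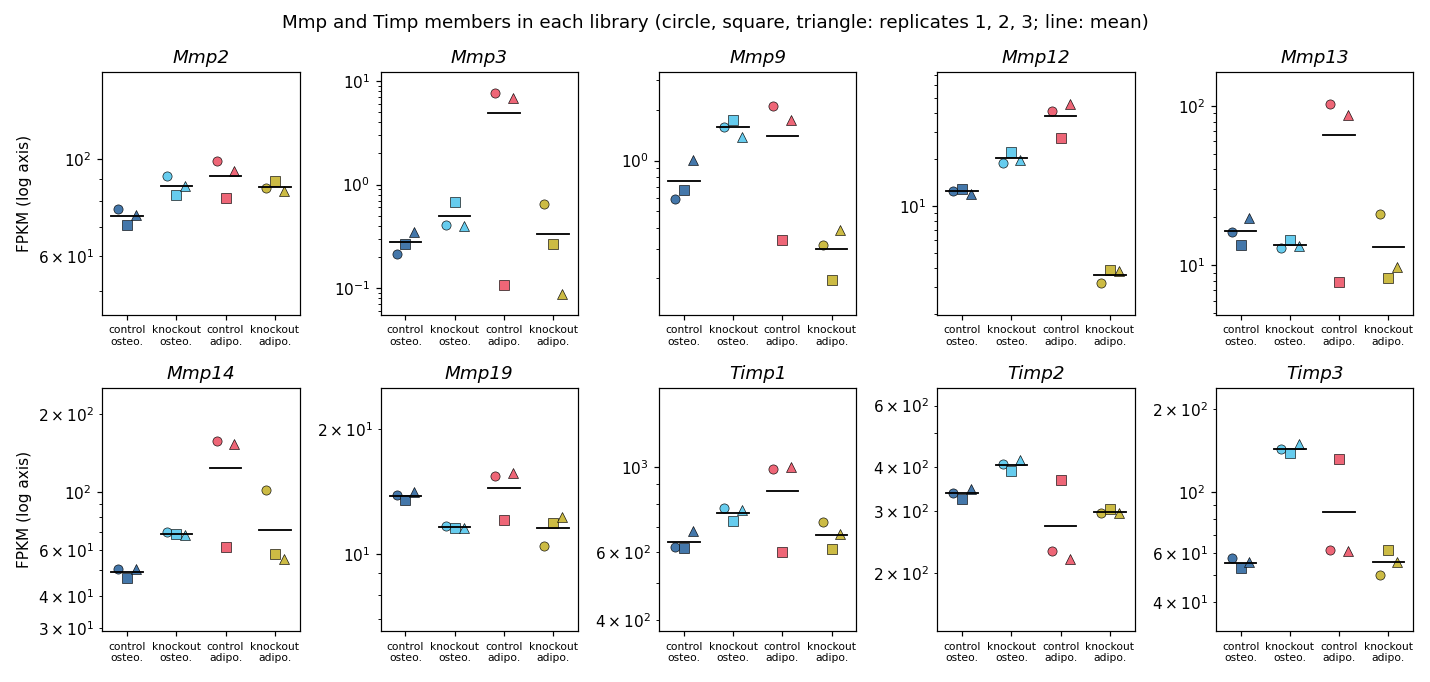
Level of each of the 10 genes in FPKM on a log axis, for 4 groups of 3 libraries; circles, squares and triangles are replicates 1, 2 and 3 and lines are group means. The osteogenic libraries of a group lie close together, whereas control library 2 in adipogenic medium (red square) lies away from controls 1 and 3 for Mmp3, Mmp9, Mmp13, Mmp14 and all 3 Timp genes.

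In osteogenic medium, the effect of the genotype on MMP and TIMP expression was asked first. The clearest difference was in Timp3, which rose 2.56-fold on the log2(FPKM + 1) scale in the libraries labelled knockout, a scale that understates changes of genes with low values. Of the 8 tested genes other than Mmp12, 1 passed an adjusted p of 0.05 in limma and was higher, 0 were lower and 7 did not pass, where 9.09% of all 12871 tested genes passed, 4.94% higher and 4.15% lower. The median log2 difference of these 8 genes was 0.26, against -0.0064 over all tested genes. Of the same 8 genes, the libraries of the genotypes did not overlap for 7, with 6 higher in the libraries labelled knockout (Mmp2, Mmp9, Mmp14 and the 3 Timp genes) and Mmp19 lower, where 44.3% of all tested genes did not overlap, 21.0% higher and 23.2% lower. When only the 6 osteogenic libraries were fitted, 7 of the 8 genes passed, 6 higher and Mmp19 lower, where 27.8% of 12258 genes did. The limma adjusted p was then 0.0125 for Mmp2 and Mmp9, 0.000362 for Mmp14 and 0.00225 for Mmp19. For Timp1 and Timp2 it was 0.0115 and 0.00308.

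In adipogenic medium, Mmp9 and Mmp19 fell in the libraries labelled knockout. Of the 8 tested genes other than Mmp12, 0 were called higher, 2 lower and 6 did not pass, where 33.2% of all tested genes passed, 16.7% higher and 16.5% lower. Their median log2 difference was -0.42, against -0.01 over all tested genes. The genotypes overlapped for all of these 8 genes, so that 0 were apart, where 38.6% of all tested genes did not overlap, 20.2% higher and 18.4% lower. Without control library 2, 7 of the 8 genes passed, 6 lower and Timp2 higher, where 51.2% of 12818 genes did. With labelled knockout library 1 also left out, 6 passed, 5 lower and Timp2 higher, where 51.9% of 12670 genes did. Setting the summed FPKM of all libraries equal moved the median difference of all genes by 0.15 in this comparison, and the share of calls that were higher went from 50.4% to 78.4%. All differences below are on the deposited scale.

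The genotype difference itself differed between the media, by the limma interaction, for Mmp9 and Timp3. Thus 2 of the 8 genes passed, both more negative in adipogenic medium, where 20.4% of all tested genes passed, 9.58% of all more negative and 10.9% more positive. Without both libraries that stood apart, 6 of the 8 passed, all more negative, where 45.7% of 12670 genes did. The differences in the 2 media are taken from separate libraries, while the interaction uses all 12. All tests of a gene share a residual variance from the model of all 12 libraries. The spread of the adipogenic libraries therefore also enters the SE and p-values in osteogenic medium.

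**Figure D2:**
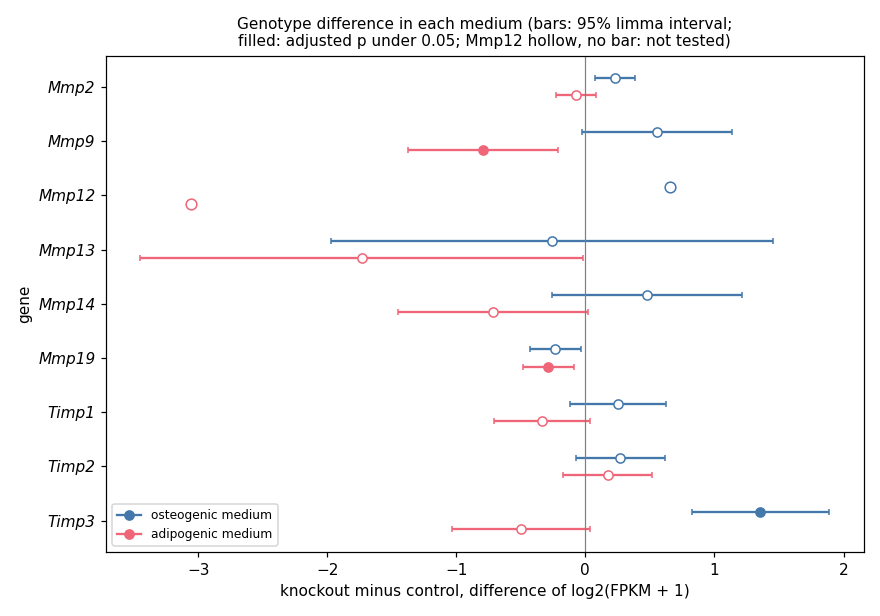
Difference between libraries labelled knockout and control in log2(FPKM + 1), for osteogenic (blue) and adipogenic (red) medium; bars are 95% limma intervals, filled points passed an adjusted p of 0.05, and Mmp12, shown hollow without a bar, was not tested. Timp3 passed in osteogenic medium at 1.36, and Mmp9 and Mmp19 passed in adipogenic medium at -0.79 and -0.29.

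Gelatinases cut denatured collagen and basement membrane collagen. Positions here and below are on GRCm38. Mmp2 (gelatinase A; ENSMUSG00000031740, chr8:92827291-92853420, plus strand) was among the most abundant of the Mmp genes. Its level in osteogenic medium was 76.8, 70.4 and 74.2 FPKM in controls and 91.2, 82.7 and 86.7 FPKM in libraries labelled knockout. In adipogenic medium it was 98.7, 81.5 and 93.7 FPKM in controls and 85.7, 89.0 and 84.6 FPKM in libraries labelled knockout. Labelled knockout libraries were all higher in osteogenic medium, and the genotypes overlapped in adipogenic medium. The log2 difference between genotypes was 0.23 (SE 0.0697, adjusted p = 0.0695) and -0.07 (SE 0.0697, adjusted p = 0.443), and the latter turned to 0.11 (adjusted p = 0.25) when libraries were rescaled to the same sum. Without control library 2 it was -0.15 (adjusted p = 0.0324). The interaction was -0.31 (SE 0.0985, adjusted p = 0.0527), and -0.38 (adjusted p = 0.00271) without both libraries that stood apart.

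Mmp9 (gelatinase B; ENSMUSG00000017737, chr2:164940780-164955850, plus strand), which osteoclasts and inflammatory myeloid cells are known to express, was low. It was at 0.592, 0.672 and 1.01 FPKM in control and 1.59, 1.75 and 1.38 FPKM in osteogenic libraries labelled knockout. With adipogenic medium the level was 2.10, 0.338 and 1.74 FPKM in controls and 0.316, 0.195 and 0.387 FPKM in libraries labelled knockout, so that control library 2 lay among the latter. These levels rested on 13 to 122 fragments per library. Mmp9 had a log2 difference of 0.55 (SE 0.26, adjusted p = 0.236) in osteogenic medium and fell by 0.79 on the log2 scale in adipogenic medium (SE 0.26, limma adjusted p = 0.0398). The difference between the media was -1.35 (SE 0.368, adjusted p = 0.0284). The call in adipogenic medium was lost when any 1 of its libraries other than control library 2 was left out, with an adjusted p between 0.0771 and 0.139, and the interaction was lost in 9 of 12 such fits, at an adjusted p of up to 0.0668. The difference between genotypes in adipogenic medium was -1.17 (adjusted p = 4.37e-05) without control library 2, and its call was also lost with limma voom on recovered fragments, at -1.75 (adjusted p = 0.114). The summed FPKM of 9 osteoclast markers was 102 to 107 in control and 125 to 127 in labelled knockout libraries in osteogenic medium, and 97.6 to 99.1 and 87.1 to 95.2 in adipogenic medium. Of the 5 markers tested, 1 was lower and 0 higher with the knockout label in each medium. Of all tested genes, 9.09% passed in osteogenic and 33.2% in adipogenic medium. The lower marker was not the same gene in the 2 media. Without both libraries that stood apart, 2 of the 5 were higher and 2 lower in adipogenic medium, where 51.9% of 12670 genes passed. Single markers moved in opposite directions within the sum. Acp5, the gene of tartrate-resistant acid phosphatase, was at 35.2, 2.57 and 33.6 FPKM in adipogenic controls 1, 2 and 3, while Atp6v0d2, a proton pump subunit gene named after its values were seen, was at 2.11, 36.2 and 2.61 FPKM. The part of osteoclast RNA in Mmp9 was not tested.

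Mmp13 (collagenase 3; ENSMUSG00000050578, chr9:7272514-7283331, plus strand) cuts fibrillar collagen and is a known product of osteoblasts and hypertrophic chondrocytes. In osteogenic medium it was at 16.2, 13.4 and 19.8 FPKM in controls and 12.8, 14.4 and 13.2 FPKM in libraries labelled knockout, and the groups overlapped. In adipogenic medium controls were at 103, 7.81 and 87.5 FPKM and libraries labelled knockout at 21.0, 8.28 and 9.80 FPKM. Controls 1 and 3 were the highest of the 12 libraries, and control library 2 was the lowest. The log2 difference between genotypes in adipogenic medium was -1.73 (SE 0.77, adjusted p = 0.11), with a 95% interval from -3.45 to -0.02. It was -2.88 (adjusted p = 4.32e-05) without control library 2, and -3.26 (adjusted p = 2.74e-07) without both libraries that stood apart.

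Mmp3 (stromelysin 1; ENSMUSG00000043613, chr9:7445822-7455975, plus strand) cuts proteoglycans, laminin and fibronectin and can activate other MMP precursors. It was at 0.214, 0.264 and 0.346 FPKM in control and 0.402, 0.675 and 0.396 FPKM in osteogenic libraries labelled knockout. With adipogenic medium the level was 7.70, 0.106 and 6.92 FPKM in controls and 0.65, 0.265 and 0.0876 FPKM in libraries labelled knockout. Controls 1 and 3 held 228 and 202 fragments of Mmp3, and each of the other 10 libraries held between 3 and 22. Mmp3 thus passed 1 FPKM only in 2 libraries and was not tested.

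Mmp12 (macrophage elastase; ENSMUSG00000049723, chr9:7344381-7369499, plus strand) is known from macrophages, and its substrates include elastin. Osteogenic controls were at 12.5, 12.9 and 12.0 FPKM, and libraries labelled knockout were at 18.8, 22.3 and 19.8 FPKM. Adipogenic controls were at 41.1, 27.3 and 45.7 FPKM, and libraries labelled knockout were at 3.18, 3.85 and 3.78 FPKM. Neither pair of groups overlapped, and the order was reversed between the media. The group means from high to low were 38.0 ± 9.60, 20.3 ± 1.78, 12.5 ± 0.468 and 3.60 ± 0.369 FPKM (SD, n = 3 each) for adipogenic controls, osteogenic labelled knockout, osteogenic controls and adipogenic labelled knockout, and no neighbours in this order overlapped. The genotype difference on the log2 scale was 0.66 in osteogenic and -3.06 in adipogenic medium. These are the values for which Mmp12 was listed. Without both libraries that stood apart, the latter was -3.20.

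The summed level of macrophage marker RNA moved with Mmp12 only in part. The summed FPKM of 20 macrophage markers was 17134 to 17659 in control and 18099 to 18586 in libraries labelled knockout with osteogenic medium. Under adipogenic medium the sum was 11966 to 21618 in controls, with the lowest value in control library 2, and 9808 to 11360 in libraries labelled knockout. Mmp12 per 1000 FPKM of these markers was 0.679 to 0.733 and 1.01 to 1.22 in osteogenic medium, and 1.90 to 2.28 and 0.280 to 0.392 in adipogenic medium, in control and labelled knockout libraries. Neither pair of groups overlapped on this scale. Of the 20 markers, 1 rose and 6 fell with the knockout label in osteogenic medium, and 4 rose and 10 fell in adipogenic medium, where 9.09% and 33.2% of all tested genes passed. In osteogenic medium more markers thus fell than rose, although their sum and Mmp12 were higher. Without both libraries that stood apart, 7 of the 20 rose and 10 fell in adipogenic medium, where 51.9% of 12670 genes passed. The sum gives most weight to the most abundant markers. The part of macrophage RNA in Mmp12 was not tested, and in bulk RNA fewer cells of a type and less RNA per cell cannot be told apart.

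**Figure D3:**
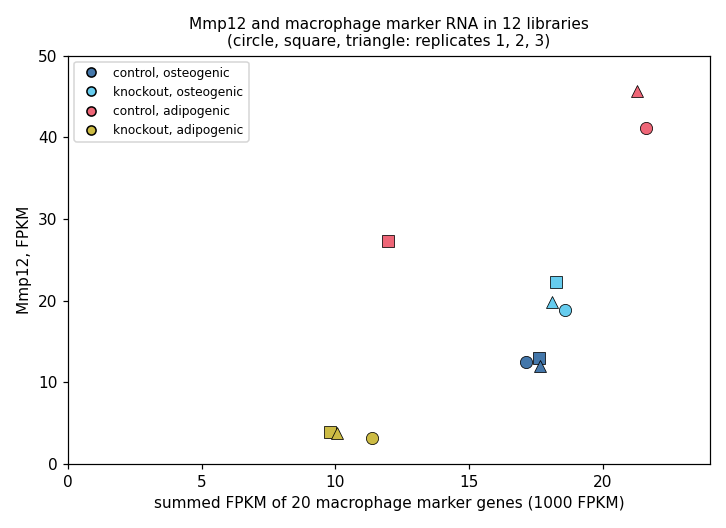
Mmp12 in FPKM against the summed FPKM of 20 macrophage marker genes, in units of 1000 FPKM, for the 12 libraries; colors are groups and shapes are replicates 1, 2 and 3. Control library 2 in adipogenic medium lies at 27.3 FPKM of Mmp12 with a marker sum close to that of the libraries labelled knockout, which were at 3.85 FPKM or less.

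Mmp14 (MT1-MMP; ENSMUSG00000000957, chr14:54431612-54445364, plus strand) is a membrane-bound collagenase that activates the precursor of Mmp2 at the cell surface. It was at 50.4, 46.8 and 50.9 FPKM in control and 70.5, 68.8 and 68.2 FPKM in labelled knockout libraries in osteogenic medium. Adipogenic controls were at 157, 61.3 and 153 FPKM and libraries labelled knockout at 102, 57.7 and 55.4 FPKM. Control library 2 lay below labelled knockout library 1, and the other labelled knockout libraries were lower still. The log2 difference between genotypes was 0.48 (SE 0.331, adjusted p = 0.442) in osteogenic and -0.72 (SE 0.331, adjusted p = 0.121) in adipogenic medium. The osteogenic difference passed when only the osteogenic libraries were fitted, at a limma adjusted p of 0.000362. In adipogenic medium it was -1.16 (adjusted p = 0.00114) without control library 2 and -0.997 (adjusted p = 0.0495) without labelled knockout library 1. The interaction was -1.20 (SE 0.468, adjusted p = 0.0987), and -1.92 (adjusted p = 3.29e-08) without both.

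Mmp19 (ENSMUSG00000025355, chr10:128790910-128800824, plus strand), a secreted MMP that cuts basement membrane proteins, varied little. Osteogenic levels were 13.9, 13.5 and 14.1 FPKM in controls and 11.7, 11.6 and 11.5 FPKM in libraries labelled knockout. Adipogenic levels were 15.4, 12.1 and 15.6 FPKM in controls and 10.5, 11.9 and 12.3 FPKM in libraries labelled knockout. All osteogenic labelled knockout libraries were below the controls, and in adipogenic medium control library 2 overlapped the other genotype. The log2 difference was -0.23 (SE 0.0887, adjusted p = 0.143) in osteogenic medium. In adipogenic medium Mmp19 fell by 0.29 on the log2 scale (SE 0.0887, limma adjusted p = 0.0316), but this was -0.11 (adjusted p = 0.194) with libraries rescaled to the same sum, and the call was lost without control library 1 or 3 or labelled knockout library 1 or 2, with an adjusted p between 0.0617 and 0.111. Mmp19 shares 22.3% of its exonic length with Tmem198b on the opposite strand, which was at 3.31 to 4.74 FPKM, and the use of strand in counting is not stated.

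Timp1 (ENSMUSG00000001131, chrX:20870166-20874735, plus strand), a secreted inhibitor of most MMPs, was the most abundant of the 10 genes in every library. It was at 619, 617 and 680.0 FPKM in control and 783, 724 and 774 FPKM in osteogenic libraries labelled knockout. In adipogenic medium controls were at 989.5, 600.2 and 999.3 FPKM and libraries labelled knockout at 719, 613 and 670.0 FPKM. Controls 1 and 3 in adipogenic medium were the highest, and control library 2 was the lowest. The log2 difference was 0.25 (SE 0.166, adjusted p = 0.418) in osteogenic and -0.34 (SE 0.166, adjusted p = 0.145) in adipogenic medium, and the latter was -0.58 (adjusted p = 9.71e-05) without control library 2 and -0.63 (adjusted p = 3.42e-05) without both libraries that stood apart.

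Timp2 (ENSMUSG00000017466, chr11:118301069-118355740, minus strand), which inhibits Mmp2 and also bridges its precursor to Mmp14 for activation, had the next highest levels. Osteogenic levels were 339, 325 and 348 FPKM in controls and 410.3, 392 and 421 FPKM in libraries labelled knockout. Adipogenic levels were 232, 367 and 219 FPKM in controls and 297, 304 and 296 FPKM in libraries labelled knockout. Adipogenic controls 1 and 3 were the lowest of the 12 libraries, while control library 2 lay among the osteogenic levels. The log2 difference was 0.27 (SE 0.154, adjusted p = 0.336) in osteogenic and 0.17 (SE 0.154, adjusted p = 0.416) in adipogenic medium, and the latter was 0.41 (adjusted p = 4.89e-05) without control library 2 and 0.41 (adjusted p = 9.26e-05) without both libraries that stood apart.

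Timp3 (ENSMUSG00000020044, chr10:86300372-86349506, plus strand) is the matrix-bound inhibitor, which also blocks the sheddase ADAM17. Osteogenic levels were 57.5, 53.3 and 55.7 FPKM in controls and 143, 139 and 149 FPKM in libraries labelled knockout. Adipogenic levels were 61.6, 132 and 61.0 FPKM in controls and 50.2, 61.7 and 55.8 FPKM in libraries labelled knockout. All 3 osteogenic labelled knockout libraries were above all other libraries, and adipogenic control library 2 came next. Timp3 rose in osteogenic medium by 1.36 (SE 0.239, adjusted p = 0.00693), and the call was kept in 8 of 8 alternatives and in 6 of 6 fits that each left out 1 library, with an adjusted p of at most 0.0339. In adipogenic medium the difference was -0.50 (SE 0.239, adjusted p = 0.133), and -0.14 (adjusted p = 0.155) without control library 2. The interaction was -1.86 (SE 0.338, adjusted p = 0.00434) and passed in 8 of 8 alternatives and 12 of 12 fits that left out 1 library. Timp3 shares 21.3% of its exonic length with Syn3 on the opposite strand, which was at 0.0997 FPKM or less.

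The media were compared next within each genotype. These comparisons share libraries with those above. In control cells Mmp2 and Mmp14 rose in adipogenic medium, so that 2 of the 8 tested genes other than Mmp12 were called higher, 0 lower and 6 did not pass, where 22.8% of all tested genes passed, 10.5% higher and 12.3% lower. Mmp2 rose by 0.30 (SE 0.0697, adjusted p = 0.0151), and the call was lost without osteogenic control library 2 or adipogenic control library 1 or 3, at an adjusted p of up to 0.0604. Mmp14 rose by 1.19 (SE 0.331, adjusted p = 0.0297), a call that was lost in 5 of 6 fits that left out 1 library, all but that without adipogenic control library 2, at an adjusted p of up to 0.11. Of the 8 genes, 3 did not overlap between the media in controls, namely Mmp2, Mmp14 and Timp3, all higher in adipogenic medium, where 34.4% of all tested genes did not overlap, 16.2% higher and 18.3% lower. With adipogenic control library 2 left out, 7 of the 8 genes passed, 6 higher and Timp2 lower, where 48% of 12818 genes did. Mmp13 then differed by 2.47 (adjusted p = 0.000133) and Timp1 by 0.64 (adjusted p = 6.11e-05).

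In cells labelled knockout, Mmp9 and Timp3 fell in adipogenic medium. No other of the 8 genes passed, so 2 were lower and 0 higher, where 27.9% of all tested genes passed, 13.9% higher and 14.0% lower. Timp3 differed by -1.35 (SE 0.239, adjusted p = 0.00248) and Mmp9 by -0.99 (SE 0.26, adjusted p = 0.0183), and the call for Mmp9 was lost without osteogenic library 1 or 2 or adipogenic library 2 of this genotype, at an adjusted p of up to 0.0619. Mmp9, Timp1, Timp2 and Timp3 were lower in all 3 adipogenic libraries, so that 4 of the 8 genes did not overlap, where 52.5% of all tested genes did not, 26.0% higher and 26.5% lower. Mmp12 had a log2 difference between the media of 1.51 in controls and -2.21 in cells labelled knockout. The sum of FPKM of the 3 Timp genes divided by that of the 7 Mmp genes was 5.95 to 6.30 and 6.21 to 6.68 in osteogenic control and labelled knockout libraries. In adipogenic medium this ratio was 3.02, 5.77 and 3.17 in controls 1, 2 and 3, and 4.78 to 6.14 in libraries labelled knockout.

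**Figure D4:**
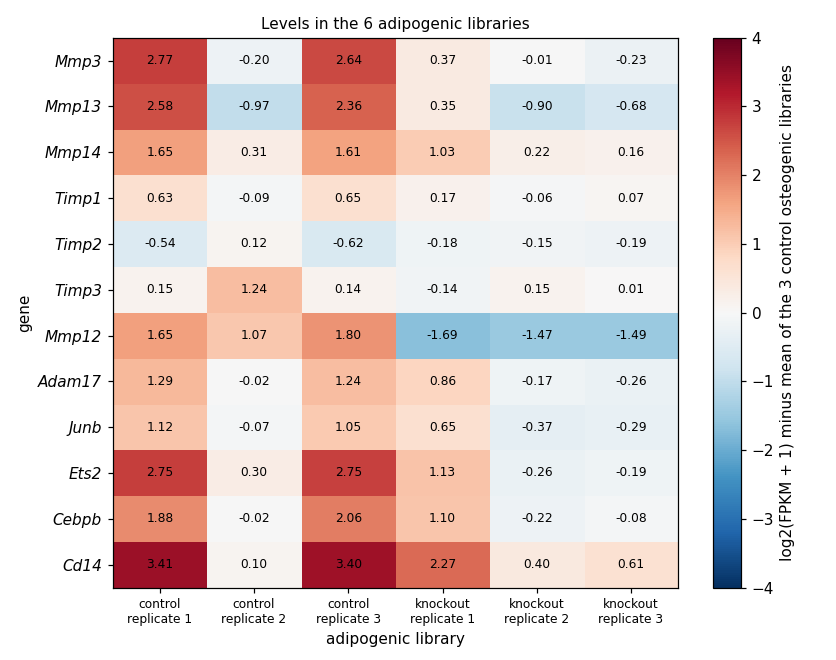
Level in each of the 6 adipogenic libraries as log2(FPKM + 1) minus the mean of the 3 osteogenic controls, for 7 of the 10 genes and 5 other genes chosen after their values were seen. Controls 1 and 3 are alike and control 2 is not, and labelled knockout library 1 is above libraries 2 and 3 for Mmp13, Mmp14, Adam17, Junb, Ets2, Cebpb and Cd14.

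Labelled knockout library 1 in adipogenic medium shared a part of the pattern of controls 1 and 3. It held the highest Mmp3, Mmp13, Mmp14 and Timp1 of its group. For Mmp14 it was 1.03 above the osteogenic control mean on the log2 scale, against 0.22 and 0.16 in libraries 2 and 3. Among genes chosen after their values were seen, the monocyte receptor gene Cd14 was 2.27 above that mean in library 1, against 0.40 and 0.61 in the others, and Junb, a subunit of the transcription factor AP-1, was 0.65 above it, against -0.37 and -0.29. For Mmp12, library 1 was not apart from its group, at -1.69, -1.47 and -1.49 for libraries 1, 2 and 3.

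Mmp13, Mmp12 and Mmp3 lie in a cluster of 10 MMP genes on chromosome 9, which spans 427 kilobases of GRCm38 (chr9:7272514-7699585) in the order Mmp13, Mmp12, Mmp1b, Mmp3, Mmp1a, Mmp10, Mmp8, Mmp27, Mmp20 and Mmp7. Stretches of 120 bases before RefSeq start sites (GRCm38.p6, plus strand, none in an annotated exon) are shown for the 6 cluster genes with the higher levels, so that neighbours with different patterns can be compared. Mmp13 is shown at chr9:7272394-7272513, Mmp12 before the downstream of its 2 RefSeq starts at chr9:7347254-7347373, Mmp3 at chr9:7445702-7445821, Mmp10 at chr9:7502222-7502341, Mmp8 at chr9:7558309-7558428 and Mmp27 at chr9:7571276-7571395. Capitals mark the letters TGANTCA, which the transcription factor AP-1 is known to bind.
Mmp13: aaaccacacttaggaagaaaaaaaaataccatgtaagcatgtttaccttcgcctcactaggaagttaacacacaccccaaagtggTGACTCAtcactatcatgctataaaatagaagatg
Mmp12: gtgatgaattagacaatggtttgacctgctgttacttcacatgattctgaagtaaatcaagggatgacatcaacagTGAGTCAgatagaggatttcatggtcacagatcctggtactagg
Mmp3: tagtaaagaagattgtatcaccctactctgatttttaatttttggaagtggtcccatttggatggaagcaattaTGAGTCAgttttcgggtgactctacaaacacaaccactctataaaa
Mmp10: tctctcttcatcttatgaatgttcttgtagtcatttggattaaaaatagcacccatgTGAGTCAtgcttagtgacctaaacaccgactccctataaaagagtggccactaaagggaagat
Mmp8: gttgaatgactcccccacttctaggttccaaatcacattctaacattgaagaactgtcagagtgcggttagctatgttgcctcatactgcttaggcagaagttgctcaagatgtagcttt
Mmp27: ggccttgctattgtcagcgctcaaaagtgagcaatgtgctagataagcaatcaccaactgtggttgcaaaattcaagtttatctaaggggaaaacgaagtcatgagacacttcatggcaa

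These letters begin at base -35 of Mmp13, -44 of Mmp12, -46 of Mmp3 and -63 of Mmp10, counted from the RefSeq start, and are not in the printed stretches of Mmp8 and Mmp27. In windows from 250 bases before to 50 bases after a start, searched on both strands, TGANTCA was found in 8 of the 10 cluster genes and in 0 of 12 other Mmp and Timp genes with a window, where 8.97% of all 27025 genes with a window held it in any of their windows. It was not in the window of the upstream Mmp12 start. TATAAA was in 9 of the 10 cluster genes and in 1 of the 12 others, where 15.7% of all genes held it. TGTGGT, known from RUNX factors, was in 4 and 2 of them, where 18.9% of all genes held it, and among the 7 genes described here with a window it was in those of Mmp13 and Mmp14. AGGAAG, known from ETS factors, was in 7 and 6 of them, where 38.4% of all genes held it. No hits of different motifs overlapped. RefSeq windows of Mmp2, Mmp9 and Mmp19 were not used here. A match describes letters, and binding was not measured.

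**Figure D5:**
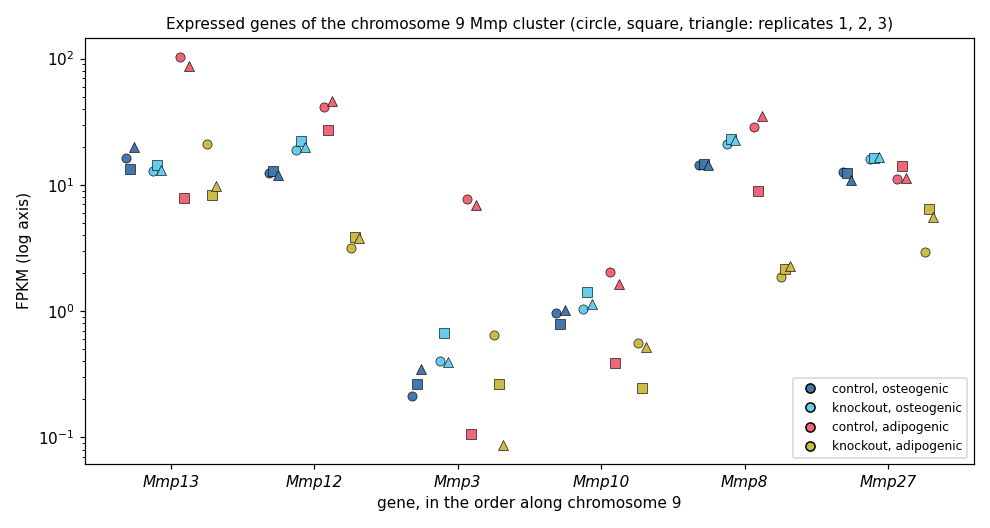
Level in FPKM on a log axis of the 6 cluster genes, in their order along chromosome 9, with a point for each of the 12 libraries; colors are groups and shapes are replicates 1, 2 and 3. Mmp12, Mmp8 and Mmp27 are lowest in the 3 adipogenic libraries labelled knockout, whereas control library 2 lies with those libraries for Mmp13, Mmp3 and Mmp10 but not for Mmp12, Mmp8 or Mmp27.

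The neighbours Mmp8 and Mmp27 were not used in the choice of Mmp12, but they were measured in the same libraries and do not repeat its result independently. Mmp8 (neutrophil collagenase) was at 14.2, 14.6 and 14.4 and 21.2, 23.1 and 22.8 FPKM in control and labelled knockout libraries in osteogenic medium. Adipogenic levels of Mmp8 were 28.6, 8.87 and 35.0 and 1.87, 2.14 and 2.26 FPKM. The libraries labelled knockout were higher in the former medium and lower in the latter, without overlap in either. Of all tested genes, 44.3% did not overlap in osteogenic and 38.6% in adipogenic medium. The log2 difference was 0.60 (SE 0.37, adjusted p = 0.382) in osteogenic medium. It passed there in 1 of 8 alternatives, at a limma adjusted p of 0.000168. Mmp8 fell in adipogenic medium, at -2.83 (SE 0.37, adjusted p = 0.000401), with an interaction of -3.43 (SE 0.523, adjusted p = 0.00168). Both calls were kept when each library was left out, and the adipogenic difference was -3.35 (adjusted p = 4.57e-09) without both libraries that stood apart. Of 9 neutrophil markers, Ly6g and Elane were at 0.0618 FPKM or less in all libraries, S100a9 was listed at 0, and S100a8 was at 65.8 and 86.0 FPKM in adipogenic controls 1 and 3 and at most 6.01 FPKM in the other libraries. Camp, named after its values were seen, was at 0.126, 7.08 and 8.03 FPKM in adipogenic controls, ordered by level. In the other groups it was at most 0.946 FPKM. Mpo, Ltf, Ngp and Cxcr2 were at 0.135 FPKM or less in all libraries. The part of these cells in Mmp8 was not tested.

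Mmp27 was at 12.5, 12.5 and 10.8 and 15.99, 16.4 and 16.6 FPKM in osteogenic control and labelled knockout libraries. Adipogenic levels of Mmp27 were 11.2, 14.0 and 11.4 and 2.94, 6.41 and 5.55 FPKM. The genotypes did not overlap in either medium and were in opposite order, where 44.3% and 38.6% of all tested genes did not overlap. Mmp27 fell in adipogenic medium, at -1.19 (SE 0.193, adjusted p = 0.00135), while the osteogenic difference was 0.42 (SE 0.193, adjusted p = 0.222) and the interaction -1.61 (SE 0.273, adjusted p = 0.00295). The osteogenic difference passed in 1 of 8 alternatives, at a limma adjusted p of 0.00254. The adipogenic difference was -0.82 (adjusted p = 2.12e-05) without both libraries that stood apart. Mmp10 (stromelysin 2), between Mmp12 and Mmp8 along the chromosome, had a group mean of 0.441 to 1.36 FPKM and log2 differences of 0.19 (SE 0.244, adjusted p = 0.717) and -0.64 (SE 0.244, adjusted p = 0.0671). Across the 12 libraries, which fall into 4 groups, Pearson's r of log2(FPKM + 1) with Mmp12 was 0.92 for Mmp8, 0.78 for Mmp27, 0.75 for Mmp10, 0.56 for Mmp13 and 0.61 for Mmp3.

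Of the 17 other Mmp and Timp genes in the table, 7 were tested, and 10 were too low. In osteogenic medium 2 of the 7 were higher in the libraries labelled knockout, 0 lower and 5 did not pass, where 9.09% of all tested genes passed, 4.94% higher. Mmp11 (stromelysin 3) rose by 0.51 (SE 0.0985, adjusted p = 0.0112) and Mmp17 (MT4-MMP) by 0.44 (SE 0.0861, adjusted p = 0.0118). The call for Mmp11 was lost without control library 2 or labelled knockout library 3, at 0.0545 and 0.0553, and that for Mmp17 without control library 2 or 3 or labelled knockout library 1, at 0.0524, 0.051 and 0.0527 (limma adjusted p). In adipogenic medium 2 of the 7 were higher, Mmp17 at 0.30 (SE 0.0861, adjusted p = 0.0238) and Mmp28 (epilysin) at 0.83 (SE 0.145, adjusted p = 0.00201), and 2 were lower, Mmp8 and Mmp27, where 33.2% of all tested genes passed. Mmp17 was not called there without control library 3 or labelled knockout library 2 or 3, at an adjusted p between 0.0673 and 0.0952. Without both libraries that stood apart, 2 of the 7 were higher and 3 lower in adipogenic medium, where 51.9% of 12670 genes passed. Mmp23 did not pass, at 0.27 (SE 0.10, adjusted p = 0.135) in osteogenic and -0.14 (SE 0.10, adjusted p = 0.325) in adipogenic medium, the latter turning to 0.04 (adjusted p = 0.799) with libraries rescaled to the same sum.

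Genes that activate MMPs or hold them at the cell surface were described as a list of 24, of which 20 were tested. In osteogenic medium 1 was higher in the libraries labelled knockout, Thbs1 (thrombospondin 1, 0.73, SE 0.106, adjusted p = 0.00252), 0 were lower and 19 did not pass, where 9.09% of all tested genes passed. In adipogenic medium 6 were higher and 5 lower, where 33.2% of all tested genes passed, 16.7% higher and 16.5% lower. Among them were Cav1, the gene of a caveolar coat protein, at 1.26 (SE 0.0769, adjusted p = 4.09e-06), the proteoglycan gene Sdc1 at -1.17 (SE 0.279, adjusted p = 0.0104) and the urokinase receptor gene Plaur at -0.97 (SE 0.254, adjusted p = 0.0157). Without both libraries that stood apart, Cav1 differed by 1.38 (adjusted p = 1.30e-07), Sdc1 by -1.66 (adjusted p = 1.31e-07) and Plaur by -1.39 (adjusted p = 4.51e-07). Reck, a membrane-anchored MMP inhibitor, was also higher there, by 0.40 (SE 0.0882, adjusted p = 0.00724), and was named after its value was seen.

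Substrates of the enzymes were listed as 19 matrix genes, most of them for collagens and elastic fibres, 17 of them tested. In osteogenic medium, where 9.09% of all tested genes passed and 4.94% were higher, 8 were higher in the libraries labelled knockout, 0 lower and 9 did not pass, led by Spp1 (osteopontin, 0.63, SE 0.0757, adjusted p = 0.00095) and Sparc (osteonectin, 0.47, SE 0.0696, adjusted p = 0.00282). In adipogenic medium 6 were higher, led by the basement membrane collagen genes Col4a1 (1.01, SE 0.0633, adjusted p = 4.57e-06) and Col4a2 (0.95, SE 0.0605, adjusted p = 5.18e-06), 1 was lower, the proteoglycan gene Dcn (-0.63, SE 0.142, adjusted p = 0.00787), and 10 did not pass, where 33.2% of all tested genes passed. Of 26 genes of the related ADAM and ADAMTS proteases, 18 were tested, of which 3 were higher and 4 lower in osteogenic medium and 6 higher and 3 lower in adipogenic medium, where 9.09% and 33.2% of all tested genes passed. Adamts1, an aggrecan-cutting protease, was lower at -0.80 (SE 0.137, adjusted p = 0.00592) in osteogenic and higher at 1.87 (SE 0.137, adjusted p = 1.25e-05) in adipogenic medium.

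Of 18 transcription factor genes, mostly of the AP-1, ETS and RUNX families and with Cebpb of the C/EBP family included, 16 were tested. In osteogenic medium 1 was higher in the libraries labelled knockout, Runx3 (0.42, SE 0.114, adjusted p = 0.0479), 2 were lower, Atf3 (-0.48, SE 0.115, adjusted p = 0.0282) and Runx2 (-0.31, SE 0.0727, adjusted p = 0.0276), and 13 did not pass, where 9.09% of all tested genes passed. In adipogenic medium 2 were higher, among them Runx2 (0.28, SE 0.0727, adjusted p = 0.0141), a regulator of osteoblast differentiation. Ets2 (-1.71, SE 0.588, adjusted p = 0.0476), Atf3 (-1.07, SE 0.115, adjusted p = 0.000124) and Jund (-0.51, SE 0.0924, adjusted p = 0.00246) were lower, and 11 did not pass, where 33.2% of all tested genes passed. For Ets2, adipogenic controls were 2.75, 0.30 and 2.75 above the osteogenic control mean on the log2 scale and libraries labelled knockout were at 1.13, -0.26 and -0.19, and without both libraries that stood apart its difference was -2.98 (adjusted p = 2.96e-10).

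Both libraries that stood apart were then left out in adipogenic medium. Of 19 tested genes of activation and surface regulation, 8 were higher and 6 lower with the knockout label. Of 17 matrix genes, 7 were higher and 5 lower, and of 18 ADAM and ADAMTS genes, 7 were higher and 6 lower. Of 16 transcription factor genes, 2 were higher and 9 lower. Of all tested genes, 51.9% passed, and the split of this share by direction is not given here.

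The genes most like each tested gene were found by Pearson's r of log2(FPKM + 1) over the 12 libraries, which share their groups, so that the values are a description. Mmp12 was most like Zadh2 (0.985), Cbr3 (0.979) and Tanc2 (0.979). Mmp14 was most like Pfkfb3 (0.993), Psmb5 (0.991) and Cstb (0.984), and Mmp13 most like Nod1 (0.985), Gm36161 (0.985) and Rab11fip1 (0.983). For Mmp9 they were Lbp (0.975), its fellow family member Mmp10 (0.943) and Nrep (0.943), for Mmp2 Antxr1 (0.945), Plxnb1 (0.939) and Ankrd50 (0.933), and for Mmp19 Keap1 (0.968), Arhgef6 (0.967) and Man1a (0.962). Timp1 was most like Sod3 (0.978), Aifm2 (0.966) and Rad23b (0.965), Timp2 most like Cbx6 (0.980), Umps (0.967) and Itgax (0.963), and Timp3 most like Lrp3 (0.984), Ckap2 (0.967) and Diaph3 (0.961).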

How the data were processed

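RNA-seq libraries of bone marrow MSCs were grouped by genotype and medium, as their labels give them, with 3 libraries in each of 4 groups. The authors deposited FPKM per gene. The submitters' processing notes name Bowtie 0.12.2 and mm9, while the study's methods name HISAT2 and Ballgown, and gene lengths matched GENCODE annotation on GRCm38, so coordinates are given on GRCm38. The use of strand in counting is not given in the sources used here.

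Genes with at least 1 FPKM in at least 3 libraries were tested on log2(FPKM + 1) with limma 3.58.1 (R 4.3.3, trended variance) in one model of 4 group means over 12 libraries, with Benjamini-Hochberg adjustment over 12871 genes and a threshold of 0.05. The script was tested on simulated data. FPKM values under 30 fragments were whole multiples of 1 fragment, within 0.02 fragments, for 98.2% to 98.4% of values per library, which gave the fragment numbers. The depth limits genes with few fragments, and counting error is not the spread between animals. No pair of libraries agreed within counting noise.

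The genes named are the 10 described, other Mmp and Timp genes that were tested, up to 4 called genes of each list with the largest differences, the first genes of marker lists, the 3 genes most like a described gene, genes of the chromosome 9 cluster, and Chd7. One gene that this rule names is not reported here. The genes and lists were chosen with earlier results of these data known. Promoter sequences came from RefSeq (GRCm38.p6), with windows for 7 of the 10 genes. Alternatives were another pseudocount, no filter, rescaling to the same sum (TPM) or by median ratios, no variance trend, a replicate block, fits of only the compared libraries, and leaving out each library. Limma voom on recovered fragments, and leaving out both libraries that stood apart, were chosen after seeing the data. Tables and plots were made with Python 3.11.15, numpy 2.4.6, pandas 2.3.3 and matplotlib 3.10.9.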

Additional observations from a re-analysis of the deposited data

Results flagged for a closer look

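The difference between genotypes differed between the 2 media by the limma interaction for 6 tested Mmp and Timp genes, where 20.4% of all tested genes passed. These were 2 of the 8 tested genes described other than Mmp12, and 4 of the 7 other Mmp and Timp genes tested. It is given as the log2 difference in adipogenic medium minus that in osteogenic medium. Among the genes described, limma called it for Mmp9 at -1.35 (SE 0.368, adjusted p = 0.0284) and for Timp3 at -1.86 (SE 0.338, adjusted p = 0.00434). Mmp12 had the value -3.71, for which it was chosen, and this was not tested. Among the other family members, it was called for the neutrophil collagenase Mmp8 at -3.43 (SE 0.523, adjusted p = 0.00168), for Mmp27 at -1.61 (SE 0.273, adjusted p = 0.00295) and for Mmp11 at -0.77 (SE 0.139, adjusted p = 0.00419), and these 3 calls were kept in all alternatives and in every fit without 1 library. Mmp28 was called at 0.72 (SE 0.205, adjusted p = 0.0339), a call kept in 4 of 8 alternatives and lost in 7 of 12 fits without 1 library, at an adjusted p of up to 0.0836. Groups of 3 libraries were not searched for single outlying values.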

How the results depend on the processing

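Timp3 kept its calls in osteogenic medium, between the media in cells labelled knockout and for the interaction under every alternative run. Mmp9, Mmp19, Mmp2 and Mmp14 did not, and where no value is given beside them the cause was not tested. Depth limits Mmp3 and Mmp9, which held few fragments.

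Of all tested genes, 1170 differed between genotypes in osteogenic medium, and 526 after rescaling to the same sum, 3412 with only the compared libraries and 522 to 662 without 1 library. In adipogenic medium 4276 differed, and 6575 without both libraries that stood apart, 1707 with only the compared libraries and 2723 to 6559 without 1 library. For the interaction 2630 were called, and 5793 without both libraries and 1754 to 5427 without 1. Between the media in controls 2935 were called, and 6397 without both libraries, 527 with only the compared libraries and 1367 to 6147 without 1. Limma voom on recovered fragments called 1208, 4200, 2607 and 2725 genes in these 4 comparisons and 3690 between the media in cells labelled knockout, where limma called 3592. After rescaling to the same sum, the share of calls that were higher went from 53.1% to 75.4% for the interaction, from 46.1% to 30.6% between the media in controls and from 49.7% to 65.5% in cells labelled knockout, and the median of all genes moved by 0.16, -0.11 and 0.05.

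Of the 8 described genes tested, 1 was called in osteogenic medium and 7 with only the compared libraries. In adipogenic medium 2 were called, but 0 without the filter, 1 after rescaling, 1 with voom, 6 without both libraries, 0 of 7 with only the compared libraries, where Mmp9 was not tested, and 0 to 7 without 1 library. The interaction was called for 2, but 1 without the filter, 6 without both libraries and 1 to 6 without 1. Between the media in controls 2 were called, but 1 without the filter, 1 after rescaling, 8 without both libraries, 0 with only the compared libraries and 0 to 7 without 1. In cells labelled knockout 2 were called, but 6 without both libraries and 1 to 2 without 1. Without both libraries, 51.9% of 12670 tested genes passed in adipogenic medium and 45.7% for the interaction. Between the media, 50.5% then passed in controls and 42.4% in cells labelled knockout. The share of all genes that passed without the filter is not given here.

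Calls of the report were also lost under other settings, given with the limma adjusted p, for Mmp9 in adipogenic medium without the filter (0.0854) and for the interaction without it (0.0635) and with voom (0.0656), Mmp19 in adipogenic medium without the filter (0.0637) and with only the compared libraries (0.15), Mmp2 between the media in controls after rescaling (0.126) and with only the compared libraries (0.0978), and Mmp14 there without the filter (0.0674) and with only the compared libraries (0.112). Mmp11 in osteogenic medium was lost after rescaling (0.0758), and Mmp17 in adipogenic medium without the filter (0.0588) and with only the compared libraries (0.104). The interaction of Mmp28 was lost with a pseudocount of 0.1 (0.0593), without the filter (0.0782), with the replicate block (0.0558) and with voom (0.065).

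Rescaling to the same sum reversed differences that had not passed, on the log2 scale, to 0.11 for Mmp2 and 0.041 for Mmp23 in adipogenic medium, to 0.13 for Mmp19, 0.098 for Timp2 and 0.00055 for Mmp17 in the interaction, to -0.080 for Mmp19 and -0.10 for Mmp27 between the media in controls, and to 0.058 for Mmp2, 0.056 for Mmp14 and 0.051 for Mmp19 in cells labelled knockout. Leaving out both libraries gave 0.14 for Timp2 (interaction), -0.074 for Mmp27 (controls) and 0.055 for Mmp19 (labelled knockout). Without 1 library, sign changes gave ranges of -0.17 to 0.0096 for Mmp19 and -0.24 to 0.14 for Timp2 (interaction), -0.0033 to 0.56 for Mmp10, -0.016 to 0.16 for Mmp19 and -0.074 to 0.074 for Mmp27 (controls), and -0.041 to 0.029 for Mmp2, -0.53 to 0.094 for Mmp13, -0.29 to 0.15 for Mmp14 and -0.053 to 0.055 for Mmp19 (labelled knockout). Mmp12 kept its sign in all, but it was chosen by its signs in these same libraries, so this is no support. It moved by more than 1 SD to -3.37 in adipogenic medium with voom, to -4.03 with a pseudocount of 0.1, -4.07 with voom and -3.93 without adipogenic control library 2 in the interaction, and to -2.46 and -2.49 between the media in cells labelled knockout.

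Whether libraries with the same replicate number in their labels are paired is not known. The correlation of same-numbered deviations lay between -0.29 and 0.47 and was over 0.1 for only 2 of 12 pairs. These deviations come from groups of 3 and include the 2 libraries that stood apart, so they cannot exclude pairing. With the replicate number as a block, 1018, 4167, 2473, 2907 and 3471 genes were called in osteogenic medium, adipogenic medium, the interaction, the media in controls and the media in cells labelled knockout, and 3 described genes were called in the interaction.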
